A study of Enchytraeus albidus with 21 samples.

Results

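Whole adult worms kept for 8 days in control soil were compared with worms kept for 4 days in the same kind of soil. The samples were chosen by their titles, 4 replicates labelled as control at 8 days and 4 labelled as control at 4 days in experiment 2, which makes 8 of the 21 samples of the series. Every replicate was a pool of 10 adult Enchytraeus albidus with a well developed clitellum, the glandular band of mature annelids, and came from a vessel with 25 g of moist soil held at 20 °C under a daily cycle of 16 h light and 8 h darkness. No compound was added to the soil of either group. Control samples at 2 days in experiment 2 entered the same fit. Experiment 1, with 3 arrays each of worms in acetone-spiked soil for 2 days, worms in water-control soil for 2 days and worms straight from culture at day 0, served for values side by side.

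Enchytraeus albidus, a potworm, is a small oligochaete that feeds on decaying plant matter and the microbes on it, and it is used as a test species for soil contaminants. Worms in such tests are moved from a culture substrate to fresh test soil, so their transcript levels can keep moving with time in the untreated vessels against which treated ones are later set. The design asks how far time alone moves expression under control conditions. The array probes carry identifiers that name a contig or a plate position, and the files used here do not pair them with genes. Probes are therefore described by identifier, level and pattern, and no role is given for any of them. Since RNA came from whole bodies, fewer cells of a type and less RNA per cell cannot be told apart.

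The single-colour array held 1035 worm probes in 15208 spots. A level below is the log2 processed signal of a probe minus the 75th percentile over the spots of that array; 0 stands for a probe as bright as that percentile, and a difference is the 8-day level minus the 4-day level on that scale. The signal at the 75th percentile was 973 to 2850 at 8 days and 1300 to 2903 at 4 days, and 669 to 919 probes at 8 days and 762 to 908 at 4 days were well above background. Replicate 3 at 8 days stood apart from the other 7 arrays, with the fewest probes well above background and a median negative-control signal of 11.3, against 1.02 to 2.54 on the other 8-day arrays and 2.20 to 3.39 on the 4-day arrays. Replicates 1 and 2 at 4 days were read on a newer scanner model, G2505C, than the other 6 arrays, which were read on model G2505B. No scan day held arrays of both groups, and the 8-day arrays spanned 2 days and the 4-day arrays 3, so scan day could enter the fit only as a random block. The number of arrays limits the precision of all values.

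Few probes passed the test between 8 and 4 days, which with 4 arrays per group does not show that few differed. Of 859 probes tested, 9 (1.05%) passed a Benjamini-Hochberg adjusted p of 0.05 in limma: 8 were higher at 8 days (0.931% of those tested) and 1 was lower (0.116%). The lower one passed the filter on dim probes only through the 4-day arrays, where it was bright. At an unadjusted p under 0.05 there were 62 probes, 37 higher and 25 lower. Over all probes tested the median difference was 0.09, with quartiles of -0.28 and 0.49. A difference beyond 1 log2 unit in either direction was measured for 105 probes and one beyond 2 units for 17, while the median standard error of a difference was 0.44. In the plot of difference against level, 7 of the 9 called probes are of middle brightness, and several uncalled probes have differences as large as those of called ones.

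The count of 9 rested on the 2-day arrays in the fit, on the scaling and on single arrays. With the 8 arrays of these times alone, limma called 0 of 771 probes (51 at an unadjusted p under 0.05). With limma on quantile-normalized arrays, or on arrays centred on their median, 0 probes were called higher and 1 lower (52 and 68 probes at an unadjusted p under 0.05), and median centring put the median of all differences at -0.23. Without 8-day replicate 2 or 4, or without 4-day replicate 1, 2 or 4, limma called 0 probes (59, 64, 41, 74 and 86 at an unadjusted p under 0.05). Without 8-day replicate 1 it called 6, without 8-day replicate 3 it called 6, and without 4-day replicate 3 it called 11. Scan day as a random block left 0 calls (39 at an unadjusted p under 0.05). With scanner model as a term, limma called 1 probe, Ealb_Met_P5_G10_SP6_2090492, which is none of the 9.

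**Figure D1:**
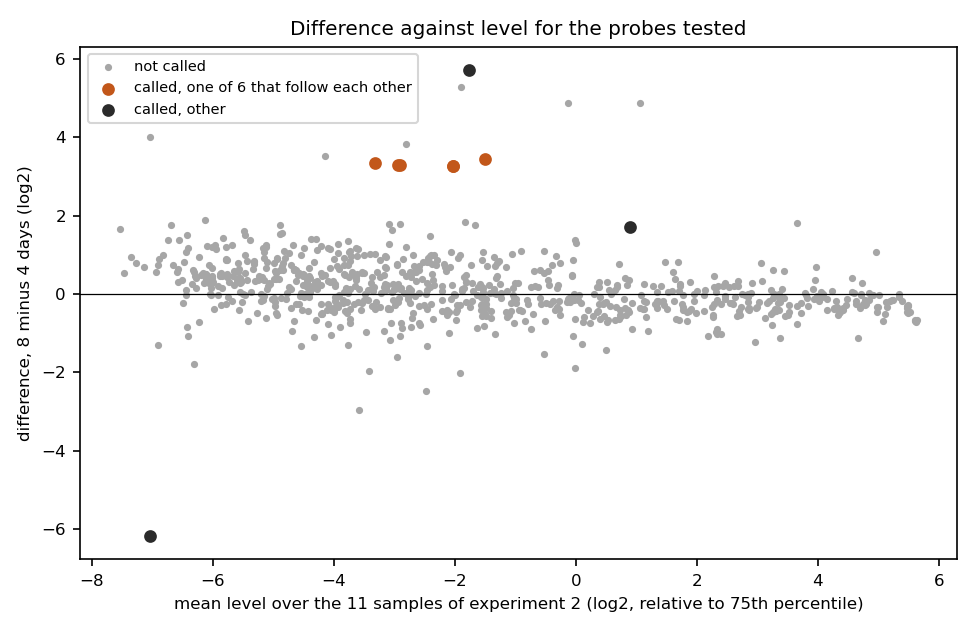
Each point is 1 of the 859 probes tested, with its mean level over the 11 samples of experiment 2 on the horizontal axis (log2, relative to the 75th percentile of the array) and its difference, 8 minus 4 days, on the vertical axis (log2). Coloured points are the 6 called probes that follow each other, between 3.26 and 3.44; black points are the other 3 called probes, at 5.71, 1.70 and -6.17.

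Of the 8 probes higher at 8 days, 6 rose as 1 block: Contig135, Contig167, Ealb_Pest_P6_F12_SP6_2092122, Ealb_Pest_P6_H1_SP6_2092020, Ealb_Pest_P7_C2_SP6_2092135 and Ealb_Pest_P9_F6_SP6_2091032. Their differences lay between 3.26 and 3.44, a 9.59- to 10.8-fold higher signal at 8 days, with adjusted p from 0.0299 to 0.0485 in limma. The probe with the largest difference among them, Ealb_Pest_P6_F12_SP6_2092122, had levels of 0.0042, 0.74, 0.22 and 1.13 at 8 days, against -4.46, -2.41, -1.23 and -3.56 at 4 days. Its mean was 0.52 ± 0.51 at 8 days and -2.92 ± 1.40 at 4 days (SD, n = 4 each), a difference of 3.44 ± 0.61 (SE; adjusted p = 0.0312 in limma). The 4 arrays at 8 days all lay above the 4 at 4 days, and the 8-day arrays lay closer together.

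Contig135 repeated this shape at a lower level. It had levels of -1.42, -1.60, -1.57 and -0.81 at 8 days, against -6.08, -4.12, -3.14 and -5.41 at 4 days. Its difference was 3.33 ± 0.56 (SE; adjusted p = 0.0299 in limma). Contig167 had -1.34, -0.88, -1.38 and -0.49 at 8 days, against -6.01, -3.81, -2.37 and -5.05 at 4 days, and its difference was 3.29 ± 0.68 (SE; adjusted p = 0.0485 in limma). In both probes, too, no array at 4 days reached the lowest array at 8 days. Ealb_Pest_P9_F6_SP6_2091032 had -1.18, -0.40, -1.38 and -0.999 at 8 days, against -5.64, -3.78, -2.81 and -4.86 at 4 days, and its difference was 3.28 ± 0.56 (SE; adjusted p = 0.0299 in limma).

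The 6 probes are not separate observations. They were grouped from the called probes by links of r above 0.975 over the 11 samples of experiment 2. Their high correlation there, r = 0.977 to 1.00 over the 15 pairs, thus follows from the choice. Over the 9 arrays of experiment 1, on which neither the choice nor the comparison of times drew, the pairs correlated at 0.986 to 1.00. All 6 had their lowest 4-day level in replicate 1 and their highest in replicate 3, and 5 of the 6 had their highest 8-day level in replicate 4. Ealb_Pest_P6_H1_SP6_2092020 and Ealb_Pest_P7_C2_SP6_2092135 differed by at most 0.056 log2 units on any of the 21 arrays, and their gap had an SD of 0.024 over the 8 arrays, the same size as the standard error from their repeated spots. Close likeness is common on this array: 42.7% of the probes tested had another probe at r above 0.95 over the 11 samples, and 29.7% at r above 0.975. No probe outside the 6 reached 0.95 with any of them.

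Within each time the block varied more at 4 days than at 8. The range over the 4 replicates was 2.83 to 3.64 log2 units per probe at 4 days, against 0.79 to 1.13 at 8 days. The gap between the lowest 8-day and the highest 4-day array was 0.99 to 1.54. The 4 arrays at 2 days lay between -4.30 and -1.61 over the 6 probes, and the 8-day arrays between -1.60 and 1.13. In each of the 6 probes every 8-day array lay above every 4-day and every 2-day array, a pattern shared by 7 of the 859 probes tested (0.815%), the other being Contig51.

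The size of the block's difference was steadier than its calls. Without 8-day replicate 3 the 6 differences were 3.34 to 3.54, with 3 of the 6 still called. Against the 4-day arrays of the newer scanner alone they were 3.72 to 3.96 and all 6 were called, and against those of the older scanner alone, the model of all 8-day arrays, they were 2.69 to 2.92 with adjusted p from 0.166 to 0.220 in limma. Under quantile normalization they were 3.06 to 3.34 (adjusted p = 0.0522 to 0.112), and under median centring 2.94 to 3.11 (adjusted p = 0.0643 to 0.0912).

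**Figure D2:**
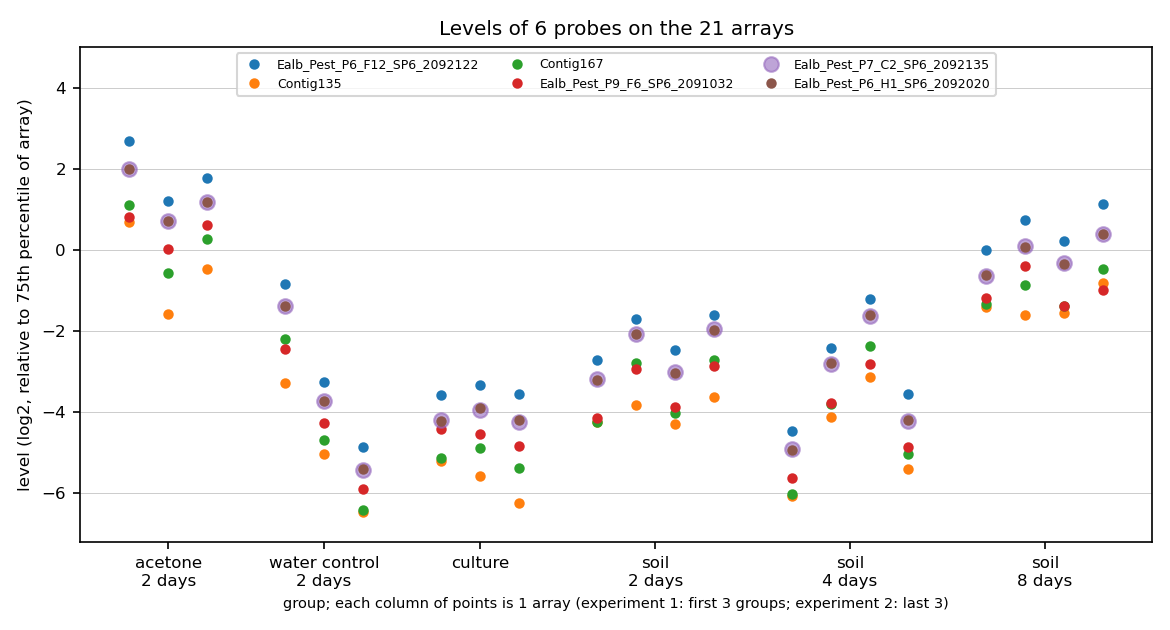
Levels (log2, relative to the 75th percentile of the array) of the 6 probes on all 21 arrays, 1 column of points per array, grouped by treatment; Ealb_Pest_P7_C2_SP6_2092135 is drawn larger since Ealb_Pest_P6_H1_SP6_2092020 lies on top of it. The 8-day columns run from -1.60 to 1.13 and the acetone columns from -1.58 to 2.68, while the 4-day columns run from -6.08 to -1.23.

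Contig8 had the largest rise of any called probe and overlapping groups. Its levels were -1.26, 2.38, 1.44 and 1.24 at 8 days, against -6.17, -6.47, -0.78 and -5.62 at 4 days, and replicate 3 at 4 days was higher than replicate 1 at 8 days. The mean was 0.95 ± 1.56 at 8 days and -4.76 ± 2.68 at 4 days (SD, n = 4 each), a 52.4-fold higher signal (difference 5.71 ± 1.19 SE; adjusted p = 0.0485 in limma). Its 2-day arrays lay between -2.47 and -0.45, above 3 of the 4 arrays at 4 days. Against the 4-day arrays of the older scanner alone the difference was 4.15 (adjusted p = 0.354).

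Contig8 too had close followers. Ealb_Met_P7_C1_SP6_2090602 correlated with it at r = 0.994 over the 11 samples of experiment 2 and at 0.999 over the 9 arrays of experiment 1. Its levels were -1.37, 2.32, 0.99 and 0.55 at 8 days, against -5.87, -6.78, -0.25 and -5.71 at 4 days, so the same 4-day replicate stood high, and its difference of 5.28 ± 1.27 (SE) did not pass the test (adjusted p = 0.109 in limma). Contig119, the other probe above r = 0.975 with Contig8, had a difference of 4.87 ± 1.33 (SE; adjusted p = 0.194). In both followers 4-day replicate 3 was the highest 4-day array (2.05 for Contig119) and lay above 8-day replicate 1. Without that array Contig119 and Ealb_Met_P7_C1_SP6_2090602 passed, at differences of 6.43 and 6.74 (adjusted p = 0.00183 in limma for both). Leaving out the array that overlaps 8 days favours such a pass, so these p-values add no support for the rise. Ealb_Met_P7_C1_SP6_2090602 passed in 2 of 24 alternatives, both without that array.

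Ealb_Met_P6_H9_SP6_2090577 was a bright and steady probe whose 4-day samples were low. It had levels of 1.63, 1.13, 1.53 and 1.21 at 8 days, against -0.15, -1.02, -0.34 and 0.19 at 4 days. The mean was 1.37 ± 0.24 at 8 days and -0.33 ± 0.51 at 4 days (SD, n = 4 each), a 3.26-fold higher signal (difference 1.70 ± 0.32 SE; adjusted p = 0.0385 in limma). The 2-day arrays lay between 1.61 and 2.23, and the arrays of experiment 1 between 1.27 and 2.55. The 4-day arrays were thus the lowest 4 of all 21, on both scanner models, with the other 17 between 1.13 and 2.55.

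Ealb_Met_P5_H9_T7_2175272 had the same order of groups and just missed the threshold. Its levels were -2.24, -2.27, -2.79 and -2.85 at 8 days, against -4.62, -4.43, -4.69 and -3.53 at 4 days, and the other 17 arrays lay between -3.33 and -1.40. The difference was 1.78 ± 0.39 (SE; adjusted p = 0.0640 in limma). The probe nearest in pattern to both was Contig76 (r = 0.916 with Ealb_Met_P6_H9_SP6_2090577 and 0.951 with Ealb_Met_P5_H9_T7_2175272 over 11 samples), which had a difference of 1.00 ± 0.27 (SE; adjusted p = 0.192). In all, 10 of the 859 probes (1.16%) had every 4-day array below every 8-day and 2-day array, and 7 (0.815%) had every 4-day array above them.

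P2_B7_T7_1328934 was the only probe called lower at 8 days. It was well above background on none of the 8-day or 2-day arrays and on all 4 of the 4-day arrays. It thus entered the test through the 4-day arrays alone, the group in which it was high. A filter asking for signal above background at every time left it untested. Its measured levels were -9.79, -10.42, -6.30 and -10.24 at 8 days, against -1.99, -2.27, -4.28 and -3.52 at 4 days. With the 8-day values held at the dimmest signal that counted as above background on each array, the signal was at least 16.0-fold lower at 8 days; the fitted difference of -6.17 ± 0.90 (SE; adjusted p = 0.0213 in limma) depends on values below background. The 2-day arrays were as dim as those at 8 days, between -10.82 and -8.54.

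The same probe was either bright or dim elsewhere in the series. In experiment 1 it had levels of -10.11, -2.96 and -9.67 with acetone, -9.93, -2.31 and -9.71 in water control, and -3.34, -1.30 and -2.90 in worms from culture. A single replicate of each soil group and all 3 of the culture group were thus near the levels seen at 4 days. No other probe correlated with it above 0.95 over experiment 2, and the nearest, P4_C4_T7_1329747 (r = 0.821 over 11 samples), had r = -0.38 with it over the 9 arrays of experiment 1. Against the 4-day arrays of the older scanner alone its difference was -5.28 (adjusted p = 0.166), and with normexp background correction it was -2.18 (adjusted p = 0.0547 in limma), which ended the call.

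**Figure D3:**
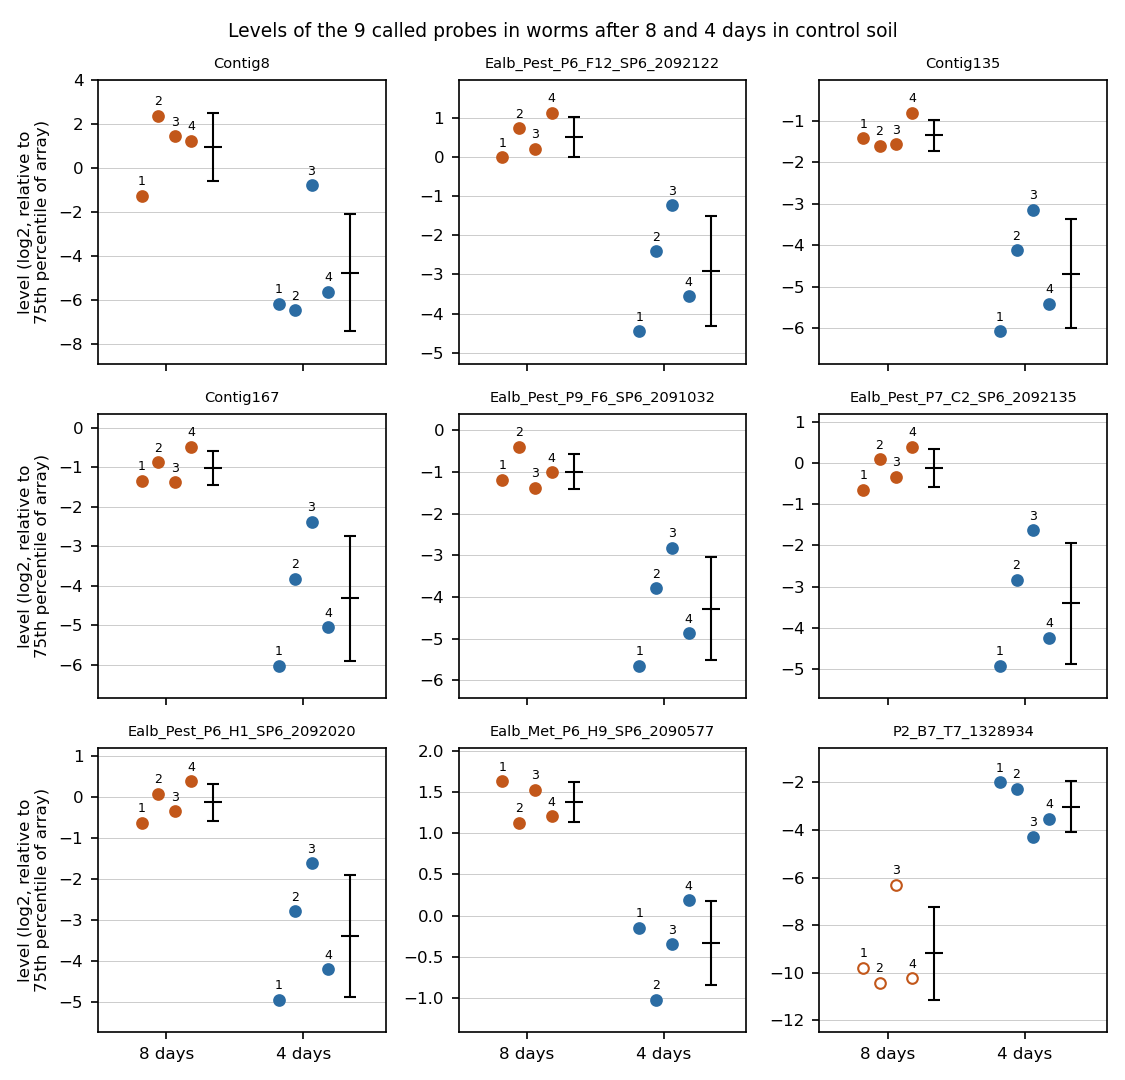
Levels (log2, relative to the 75th percentile of the array) of the 9 called probes in the 4 replicates at 8 days (left, orange) and the 4 at 4 days (right, blue), each panel with its own vertical scale; numbers are replicates, open points are not well above background, and black bars are the mean ± SD of each group. The groups are apart in every panel but that of Contig8, where 4-day replicate 3 (-0.78) lies above 8-day replicate 1 (-1.26).

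Beyond the calls, a few probes had large differences that did not pass the test. Contig51 had levels of -1.08, 1.78, -2.09 and 0.99 at 8 days, against -5.81, -3.40, -3.40 and -3.14 at 4 days, and its difference was 3.83 ± 0.89 (SE; adjusted p = 0.0869 in limma). All 9 arrays of experiment 1 had lower levels for it, between -8.91 and -6.95, than any array at 8 or 4 days. Most of these are values near background: it was well above background on 0 of 3 acetone, 1 of 3 water-control and 1 of 3 culture arrays. Of 24 alternatives it passed in 1, without 8-day replicate 3, its lowest 8-day array (difference 4.50, adjusted p = 0.0370 in limma). Among the alternatives its adjusted p reached 0.354.

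On the lower side the next probe by unadjusted p was Ealb_Met_P4_B1_SP6_2090421. It had levels of -4.96, -5.70, -3.52 and -4.29 at 8 days, against -2.38, -2.32, -2.90 and -3.04 at 4 days, with no overlap, and a difference of -1.95 ± 0.49 (SE; adjusted p = 0.133 in limma). Its 2-day arrays, between -3.58 and -2.00, overlapped both groups. Of 24 alternatives it passed in 1, with array weights, at a difference of -2.12 (adjusted p = 0.0333 in limma). Among the alternatives its adjusted p reached 0.414.

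Ealb_Met_P2_C10_SP6_2090305 was left out of the test by the filter on dim probes and was chosen here after its values were seen. It had levels of -6.55, -5.17, -6.20 and -5.52 at 8 days, against -9.60, -9.46, -8.93 and -9.24 at 4 days, with no overlap in measured levels. It was well above background on 3 of the 4 arrays at 8 days, replicate 3 being the exception, and on none at 4 days. With the 4-day values held at the dimmest signal that counted as above background on each array, the mean was at least 2.44-fold higher at 8 days. That 8-day mean includes replicate 3. With no filter, limma gave an adjusted p of 0.00115, which rests on 4-day values below background. The same holds for its adjusted p of 8.99e-04 without 8-day replicate 3, where it passed the filter through the remaining 8-day arrays, the group in which it was high. Neither p compares signals detected at both times.

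Ealb_Met_P5_G10_SP6_2090492, the probe called with scanner model as a term, split the 4-day arrays. Its levels were 0.42, 0.57, 0.84 and 0.29 at 8 days, against 0.032, 0.60, -1.84 and -1.85 at 4 days. Replicates 1 and 2 at 4 days, on the newer scanner, lay with the 8-day arrays, and replicates 3 and 4, which shared a slide and a scan day, lay far below. The difference over all arrays was 1.29 ± 0.53 (SE; adjusted p = 0.645 in limma), and 2.37 against the older scanner's arrays alone (adjusted p = 0.0237).

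Detection separated the groups for few probes. On the 8 arrays, 636 of the 1035 probes were well above background on every array and 88 on none. Above background on all 8-day arrays and on no 4-day array were 2 probes. The first was Ealb_Met_P7_C5_SP6_2090632, with levels of -7.48, -4.71, -2.06 and -4.50 at 8 days, against -9.72, -9.42, -6.72 and -8.94 at 4 days, at least 5.49-fold higher at 8 days (adjusted p = 0.152 in limma). The other was Ealb_Met_P7_G2_SP6_2090613, with -5.86, -7.47, -3.92 and -7.14 at 8 days, against -9.55, -7.44, -7.37 and -7.10 at 4 days. It was at least 2.07-fold higher at 8 days (adjusted p = 0.645 in limma). Both bounds are on group means. In both probes levels overlapped between the groups, and 8-day replicate 3 had the highest level. For Ealb_Met_P7_G2_SP6_2090613, 8-day replicates 2 and 4 lay below 4-day replicate 4. P2_B7_T7_1328934 alone was above background on all 4-day arrays and on no 8-day array. Missing at 8 days on replicate 3 only were 102 probes seen on all 4-day arrays.

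Levels of the 4 arrays at 8 days and the 4 at 4 days were fully apart for 40 of the 859 probes (4.66%), 21 higher at 8 days (2.44%) and 19 lower (2.21%). Among them were 8 of the 9 called probes. The other 32 had differences of 0.41 to 3.83 log2 units in size, with a median of 0.93. Of the 19 lower probes, 13 had identifiers made of a plate position without a prefix, with differences from -6.17 to -0.41, out of 257 such probes tested, and 4 of those 257 were among the 21 higher ones. The identifiers also carry the prefixes Ealb_Met and Ealb_Pest, which the files do not spell out: 1 of 288 Ealb_Met probes, 4 of 162 Ealb_Pest probes, 3 of 152 contigs and 0 of the 257 without a prefix were called higher in limma, beside 0.931% of all probes tested. At an unadjusted p under 0.05 in either direction there were 22 of 288, 8 of 162, 14 of 152 and 18 of 257 probes in these classes, in the same order. Over all classes there were 62 of 859, and a difference between classes was not tested. The 4 Ealb_Pest probes called higher all belong to the block.

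Median differences were highest among dim probes. The median difference was 0.38 over the 287 dimmest probes, 0.14 over the 286 of middle brightness and -0.21 over the 286 brightest. Without 8-day replicate 3, the array with the highest negative-control signal, these medians were 0.24, 0.06 and -0.15. Probes with a saturated spot numbered 14 to 41 on the 8-day arrays. They numbered 0 on 4-day replicates 1 and 2, read on the newer scanner, and 26 and 43 on 4-day replicates 3 and 4. The role of background signal, saturation and scanner model in these medians was not tested. The spread between replicates had a median SD of 0.52 at 8 days and 0.69 at 4 days, and was larger at 4 days for 57.3% of probes. It exceeded 1 log2 unit for 24.0% of probes at 8 days and 24.4% at 4 days.

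Distances between arrays of one time and between arrays of different times overlapped. The spread of log2 differences between 2 arrays, as the median absolute deviation over the probes tested, was 0.562 to 1.27 within 8 days, 0.677 to 1.37 within 4 days and 0.709 to 1.68 between them. Replicate 3 at 8 days accounted for the upper ends within 8 days and between times, at 0.986 to 1.68 from the other 7 arrays. Without it the arrays at 8 days were 0.562 to 0.789 apart (median 0.576, against 0.887 with it). Arrays of different times were then 0.709 to 1.08 apart (median 0.893, against 0.945 with it). Arrays at 4 days had a median of 1.09 among themselves, larger than the median between times with or without that replicate. On the first principal component of the 8 arrays (37.0% of the variance) that replicate lay at 34.1 and 4-day replicate 1 at -27.9, with the other 6 between -4.24 and 5.399. None of 3 array measures passed in exact two-sided permutation tests, whose smallest possible p is 0.0286. The signal at the 75th percentile averaged 1869 ± 846 at 8 days and 1906 ± 693 at 4 days (SD, n = 4 each; exact p = 0.971, adjusted 0.971). Probes well above background averaged 851 ± 121 at 8 days and 846 ± 61.1 at 4 days (exact p = 0.943, adjusted 0.971), and the interquartile range of levels 5.25 ± 0.58 and 5.72 ± 0.44 (exact p = 0.229, adjusted 0.686).

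**Figure D4:**
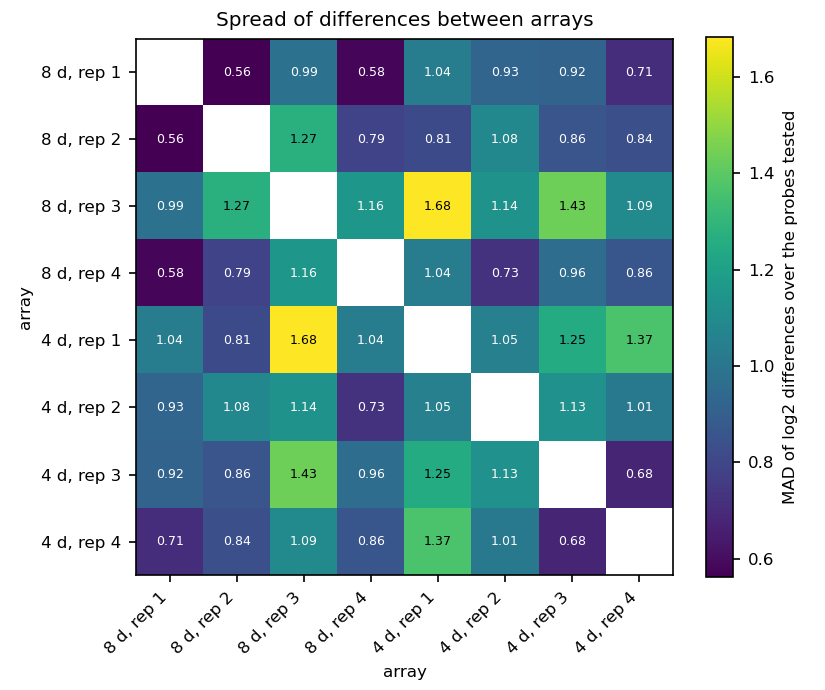
Median absolute deviation (MAD) of the log2 differences between each pair of the 8 arrays over the 859 probes tested, with 8-day replicates before 4-day replicates on both axes; a darker cell is a more similar pair. Replicate 3 at 8 days has values of 0.986 to 1.68 with every other array, and the lowest value, 0.562, is between replicates 1 and 2 at 8 days.

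Most of the probes higher at 8 days were also higher in the acetone-treated worms of experiment 1, which share no sample with this comparison. Acetone serves as a carrier solvent in soil tests. Of 883 probes tested there, 19 (2.15%) were higher with acetone than in water control at an adjusted p of 0.05 in limma. Among these were 7 of the 8 probes higher at 8 days, which is 87.5% of the 8 and 36.8% of the 19. The 7 are the block of 6 and Contig8, and the exception is Ealb_Met_P6_H9_SP6_2090577, at -0.08 ± 0.22 (SE) with acetone (adjusted p = 0.871). Since the 6 follow each other in both experiments, the 7 amount to fewer separate patterns.

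The block was higher at 8 days than at 4 days in control soil, and higher with acetone than in water control. Its 6 probe means lay between -1.35 and 0.52 at 8 days, against -4.69 to -2.92 at 4 days, and between -0.46 and 1.89 with acetone, against -4.93 to -2.99 in water control. The acetone differences were 4.47 to 4.88 (adjusted p = 0.0186 to 0.0202). Contig8 had levels of 2.93, 2.96 and 2.79 with acetone and 0.0073, -4.73 and -5.60 in water control, a difference of 6.33 ± 1.16 (SE; adjusted p = 0.0194). In worms from culture the block was as low as in the controls at 4 days, with probe means of -5.68 to -3.49.

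Of the 19 probes higher with acetone, 17 were tested between 8 and 4 days, and all 17 had a positive difference there, with a median of 3.28 against 0.09 over all probes tested (55.4% of the 848 probes tested in both were positive). The 17 include the 7 probes already called higher at 8 days, and the median is the value of a block probe, Ealb_Pest_P9_F6_SP6_2091032. Contig119 and Ealb_Met_P7_C1_SP6_2090602, which follow Contig8, are also among them. The 17 thus do not stand apart from the calls. Outside the 7 no probe was called, and the differences ran from 0.08 for Contig168 to 5.28 for Ealb_Met_P7_C1_SP6_2090602. Over all 848 probes the likeness between the comparisons was weak and lay in few probes, with Pearson's r = 0.38, 0.26 without the 6, and Spearman's rho = -0.14; probes are not independent replicates. Replicates 3 and 4 at 8 days were scanned on the same day as acetone replicates 2 and 3, and 8-day replicate 3 shared a slide with acetone replicate 3. The mean level of the block was -0.87 and -0.33 in 8-day replicates 1 and 2, scanned on another day, and -0.80 and -0.06 in replicates 3 and 4. The role of scan day and slide in the likeness to acetone was not tested.

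**Figure D5:**
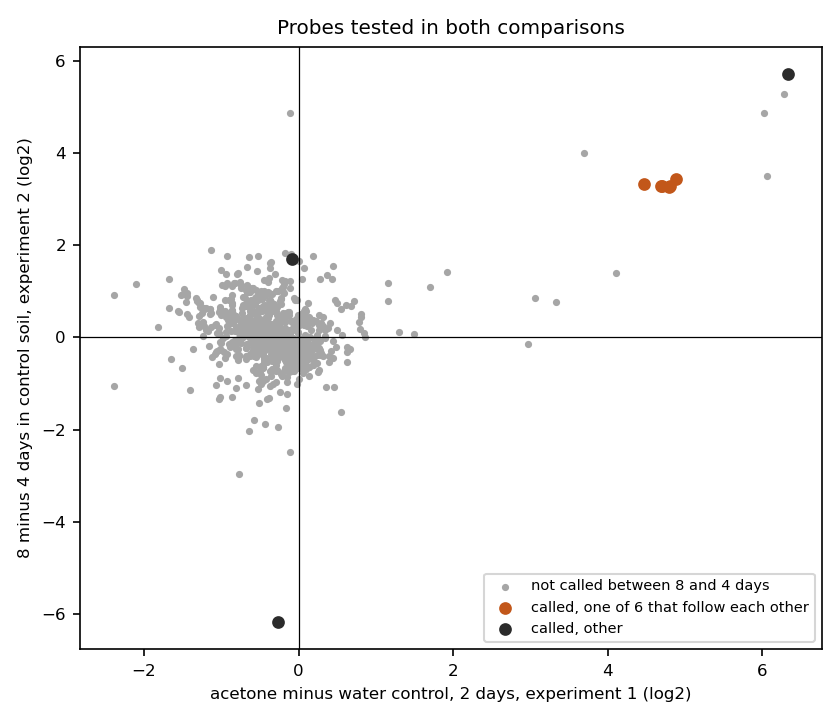
Each point is 1 of the 848 probes tested in both comparisons, with the difference acetone minus water control at 2 days in experiment 1 on the horizontal axis and the difference 8 minus 4 days in control soil on the vertical axis (both log2). The 6 probes of the block (orange) and Contig8 lie at the upper right, at 4.47 to 4.88 and 6.33 with acetone, and the other 2 called probes lie near 0 on the horizontal axis.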

How the data were processed

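Labelled RNA (0.5 µg per replicate) was hybridised to 1-colour Cy3 arrays, and replicates are biological per the labels' protocols. The deposited spot intensity had its background subtracted and spatial trend removed within each array, per the file headers, which name Agilent Feature Extraction 10.7.3.1 for replicates 1 and 2 at 4 days and 10.5.1.1 for all other arrays (the only version in the submitters' processing notes). The authors' deposited log2 values, 1 per probe and array, correlated with log2 processed signal at 0.970 to 0.998 in experiment 2 and served as an alternative; how they were normalized is not stated in the sources. Their column medians were 7.53 to 7.65, and 9 columns of experiment 1 were not used.

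Control spots and outlier spots were left out, log2 intensities averaged over a probe's spots, and each array's 75th percentile taken off. Probes entered the test if they were well above background (in a share of 0.5 or more of usable spots) on every array of at least 1 time. limma 3.58.1 in R 4.3.3 fitted 2, 4 and 8 days together, with 2-day arrays 2 and 4 averaged to 1 sample since they were nearly identical (MAD 0.0717; next lowest pair 0.446). P-values were adjusted by Benjamini-Hochberg at 0.05. The fit was tested on simulated data. Replicate numbers did not pair the samples (r = -0.03, -0.49, 0.0078 and -0.44 between deviations of same-numbered arrays), so they were no block in the fit.

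Named probes were the 2 higher and 2 lower calls with the largest difference, or the smallest unadjusted p where fewer passed; all others were singled out after their values were seen. Samples, tests and probes were chosen with earlier results of these data known. Planned lists of gene names could not be used without annotation. The files hold no mean spot signal, so normexp was run on the median signal in its place.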

Additional observations from a re-analysis of the deposited data

Results flagged for a closer look

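Among 34 sets of 4 values (array measures and probe levels within 1 time), 6 held a highest or lowest value far from the other 3 by Dixon's ratio, which chance does in about 1 in 20 groups.

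Of these, 3 concern replicate 3 at 8 days. It had 669 probes well above background, against 902 to 919 on the other 8-day arrays. Its median negative-control signal was 11.3, against 1.02 to 2.54. Its level of P2_B7_T7_1328934 was -6.30, against -10.42 to -9.79 on the others, and it was not well above background there.

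The other 3 lie at 4 days. Replicate 3 had a level of -0.78 for Contig8, against -6.47 to -5.62 on the other 3 arrays, and of -0.25 for Ealb_Met_P7_C1_SP6_2090602, against -6.78 to -5.71. Replicate 1 had a level of -5.81 for Contig51, against -3.40 to -3.14.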

How the results depend on the processing

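All 9 calls were among the 10 made with the 2-day arrays kept separate. The count was 0 with the 8 arrays alone (51 at an unadjusted p under 0.05), 0 with the replicate block (46; the numbers do not pair the samples), 0 with scan day as a random block, 1 under quantile normalization, 1 under median centring, 2 without the 3 dimmest arrays, 20 against the newer scanner's 4-day arrays (12 higher, 8 lower; all 9 among them), 1 against the older scanner's and 1 with scanner model as a term. It ranged from 0 to 11 when single replicates were left out. In the other settings it was 7 to 9. The median difference was -0.23 under median centring. Leaving out single replicates put the group difference in signal at the 75th percentile between -363.7 and 295.6, and in probes well above background between -23.8 and 64.8, none of them past the threshold. The cause of these changes was not tested.

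No named probe changed sign over its alternatives. This is a weak check, since settings that altered only the filter or the estimate of spread returned the same difference. The probes were also named for their values in these data. The 6 differences of the block stayed between 2.49 and 4.00, Contig8 between 4.15 and 7.27, Ealb_Met_P6_H9_SP6_2090577 between 1.38 and 1.96 and P2_B7_T7_1328934 between -7.13 and -2.18. Of 24 alternatives, Contig8 passed in 7, Ealb_Met_P6_H9_SP6_2090577 in 8, Ealb_Pest_P6_F12_SP6_2092122 in 11, and P2_B7_T7_1328934 in 12 of the 23 in which it was tested. Acetone differences of the block and Contig8 passed under quantile normalization and median centring of experiment 1 too. Slide as a random block could not be fitted, since only 1 slide held more than 1 sample. Alternatives with median signal in normexp, scanner model as a term and acetone scalings were chosen after seeing the data. Signal near background limits the dimmest probes.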
